A study of Mus musculus with 6 samples.

Results

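The genes described here are the CaM kinases and calmodulins of mouse cortical neurons: the CaMKII subunits *Camk2a*, *Camk2b*, *Camk2d* and *Camk2g*, the kinases *Camk1* and *Camk4*, their upstream kinase *Camkk2*, and the calmodulin genes *Calm2* and *Calm3*. They were chosen by name, and the Ensembl identifiers of the files were paired with symbols through GENCODE. All 9 were among the 31053 genes listed, and all 9 were edited (EPR above 0) in all 6 libraries, as were 8046 genes in total. The measurement is EPR (edits per read), the number of C-to-U edits on a gene divided by the number of reads counted on it, in RNA-seq libraries of cells that express Ribo-STAMP, a ribosomal protein fused to the cytidine deaminase rAPOBEC1. A ribosome that carries the fusion edits the mRNA it sits on. The study built several fusions, and the 2 compared here place the deaminase on different proteins of the large subunit. The 3 RPL10A-STAMP libraries and the 3 RPL22-STAMP libraries came from wild-type cortical neurons of C57BL/6J embryos taken at embryonic day 18. Both groups shared every other treatment. The cultures held 600000 cells per well and received floxuridine against dividing cells, AAV at DIV 6, and Dox at 1 μg per ml over 48 h, and were collected at DIV 14. In the AAV, the human synapsin promoter drives the transactivator rtTA, which in the presence of Dox turns on the fusion, so the fusion was directed to neurons. The sources call the replicates biological in one place and technical in another, and p values measure only the spread between these libraries. RPS2-STAMP and uninfected neurons were not analysed here, so no level of editing without the fusion was subtracted.

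Calmodulin is the main calcium sensor of the cytoplasm. When calcium enters a neuron, calmodulin binds it and then activates the CaM kinases. CaMKII assembles as a ring of many subunits, phosphorylates itself once active, and is a major protein of the postsynaptic density, where its alpha subunit is required for normal long-term potentiation. The mRNA of *Camk2a* is carried into dendrites and translated there. CaMKI and CaMKIV form a cascade instead: CaMKK phosphorylates both, CaMKI acts mostly in the cytoplasm, and CaMKIV enters the nucleus and phosphorylates the transcription factor CREB. *Calm2* and *Calm3* are a case apart, because they encode one and the same protein from separate chromosomes.

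The sequences of *Calm2* and *Calm3* show how far the mRNAs differ while the protein does not. Each coding sequence has 447 bases, without the stop codon, and both were translated into the same 149 residues. They nevertheless differed at 78 of these bases. Since the deaminase acts on C, the number of C in the message matters to what can be edited. The coding sequence held 73 C in *Calm2* and 87 in *Calm3*. The first 150 coding bases of each gene (GENCODE, GRCm38) are given 5′ to 3′ with every C in capitals. They are spread over the spans chr17:87435819-87446795 for *Calm2* and chr7:16917613-16923843 for *Calm3*, both on the minus strand and each with the introns between the exons.
Calm2: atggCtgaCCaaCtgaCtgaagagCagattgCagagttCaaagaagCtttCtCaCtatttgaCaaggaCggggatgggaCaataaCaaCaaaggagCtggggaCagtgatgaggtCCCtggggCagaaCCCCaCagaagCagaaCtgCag
Calm3: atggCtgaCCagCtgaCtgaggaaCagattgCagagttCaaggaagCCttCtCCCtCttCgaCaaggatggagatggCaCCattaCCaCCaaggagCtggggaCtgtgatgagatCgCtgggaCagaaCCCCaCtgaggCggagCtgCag
Of these 150 bases, 31 were C in *Calm2* and 37 in *Calm3*.

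The libraries as a whole set the frame for single genes. The median gene among the 8046 that were tested had an EPR between 0.0120 and 0.0161 with RPL10A-STAMP and between 0.00907 and 0.0129 with RPL22-STAMP. For tests across genes, libraries were therefore scaled each to its median gene, which keeps values on the EPR scale, and log2(EPR + 0.01) was fitted with limma. The added 0.01 shrinks the fold change of weakly edited genes. Without the scaling, the median log2 fold change of all tested genes was 0.18 towards RPL10A-STAMP, so changes are read relative to the median gene unless stated otherwise. A gene is called at a Benjamini-Hochberg adjusted p below 0.05. Of the tested genes, 1149 (14.3%) were called, 685 of them (59.6%) higher with RPL10A-STAMP. Without scaling, 88.1% of the calls were higher with RPL10A-STAMP. All 6 neuronal markers and all 5 excitatory neuron markers were edited in every library. Of 6 astrocyte markers, 5 were edited in every library, with a summed EPR of 0.172 to 0.281 with RPL10A-STAMP and 0.146 to 0.246 with RPL22-STAMP. The microglial genes *Csf1r*, *Aif1*, *Tmem119* and *P2ry12* and the endothelial genes *Cldn5*, *Pecam1* and *Flt1* were listed at 0 throughout. The files hold ratios only, and how many reads lie behind a value cannot be said, nor its counting error.

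*Camk2a* and *Camk4* carried the most edits per read of the 9 genes, and the variants ordered them differently. With RPL10A-STAMP, *Camk4* came first (mean EPR 0.0963), followed by *Camk2a* (0.0551), *Calm3* (0.0250), *Calm2* (0.0212), *Camk2b* (0.0169), *Camk2d* (0.0156), *Camkk2* (0.0141), *Camk2g* (0.0140) and *Camk1* (0.00621). Each of the first 4 lay above the next gene in the order without overlap. From *Camk2b* down, the ranges of neighbours overlapped. With RPL22-STAMP, *Camk2a* came first (0.0799), followed by *Camk4* (0.04997), *Calm3* (0.0382), *Calm2* (0.0293), *Camk2b* (0.0224), *Camkk2* (0.0210), *Camk2g* (0.0154), *Camk2d* (0.0129) and *Camk1* (0.00506). Here *Camk2a* lay above *Camk4*, *Camk4* above *Calm3* and *Camk2d* above *Camk1* without overlap, and the other neighbours in the order overlapped. EPR divides by the reads of the same gene, so that it is a rate per read and not a level of mRNA.

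**Figure D1:**
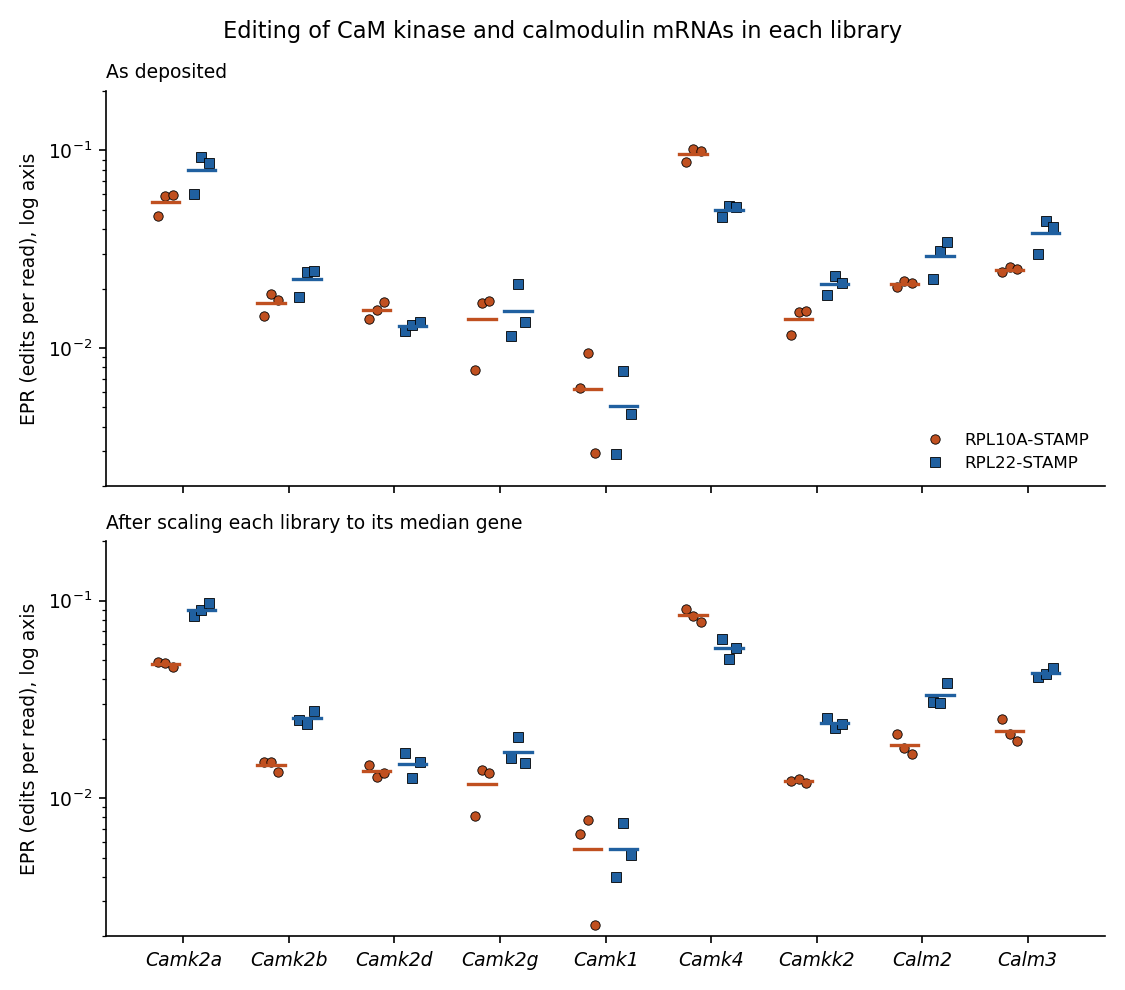
EPR (edits per read, log axis) of each gene in the 6 libraries, as deposited in the upper panel and scaled to each library's median gene in the lower one. Points are libraries (circles for RPL10A-STAMP, squares for RPL22-STAMP) and bars are means of 3. In the lower panel, the variants separate for 7 of the 9 genes and overlap for *Camk2d* and *Camk1*.

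Of the 9 genes, 5 passed the test, and all of these were higher with RPL22-STAMP: *Camk2a*, *Camk2b*, *Camkk2*, *Calm2* and *Calm3*. Among all tested genes, 5.77% were called in this direction and 8.51% in the other. The median log2 fold change (RPL10A-STAMP over RPL22-STAMP) of the 9 genes was -0.52, and that of all tested genes was -0.01. The other 4 did not pass the test, among them *Camk4*, the only one of the 9 with a positive value. After scaling, the variants were without overlap for 7 of the 9 genes, against 37.1% of all tested genes: 6 of the 7 were higher with RPL22-STAMP (background 17.1%). On the deposited values they were without overlap for 6 of the 9, against 34.4%: 4 of the 6 were higher with RPL22-STAMP (background 6.21%) and 2 higher with RPL10A-STAMP (background 28.2%).

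*Camk2a* (ENSMUSG00000024617) encodes the alpha subunit of CaMKII (GRCm38 chromosome 18, 60925618 to 60988152, plus strand). Replicates 1, 2 and 3 of RPL10A-STAMP gave an EPR of 0.0468, 0.0590 and 0.0596, and those of RPL22-STAMP gave 0.0602, 0.0926 and 0.0869. The groups did not overlap, but the lowest RPL22-STAMP library was only just above the highest RPL10A-STAMP library. The scaling drew the libraries of each variant together, to 0.0490, 0.0484 and 0.0463 under RPL10A-STAMP and 0.0832, 0.0900 and 0.0969 under RPL22-STAMP, so that scaled EPR was 1.88-fold higher with RPL22-STAMP. The log2 fold change was -0.79 (standard error 0.13, limma adjusted p = 0.0127). Within a library, *Camk2a* ranked between percentiles 93.4 and 98.3 of all tested genes. Its call was lost without RPL10A-STAMP replicate 2 (limma adjusted p = 0.0520), without RPL10A-STAMP replicate 3 (0.0619), without scaling (0.255) and after removal of the trend with GC content (0.0572). *Camk2a* is expressed in excitatory neurons, and the summed EPR of their 5 markers was 0.135 to 0.198 with RPL10A-STAMP and 0.0660 to 0.0725 with RPL22-STAMP, the opposite direction to *Camk2a*, while that of 6 interneuron markers, of which 3 were edited in every library, was 0.0430 to 0.0474 and 0.0591 to 0.0747. The part of these cell types in the result was not tested. EPR is a rate per read, so these sums measure neither the number of cells of a type nor their RNA.

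The other subunits of CaMKII carried far fewer edits per read. *Camk2b* (ENSMUSG00000057897, chromosome 11, 5969644 to 6066362, minus strand) encodes the beta subunit, which binds actin in spines. Its EPR was 0.0145, 0.0187 and 0.0175 under RPL10A-STAMP and 0.0181, 0.0244 and 0.0247 under RPL22-STAMP. RPL22-STAMP replicate 1 fell between the RPL10A-STAMP libraries (two-sided p = 0.20 by exact permutation). After scaling the groups were apart, with 1.73-fold higher values for RPL22-STAMP and a log2 fold change of -0.52 (standard error 0.12, limma adjusted p = 0.0363). The call of *Camk2b* was lost whichever library was left out (limma adjusted p from 0.0643 to 0.124), without scaling (0.401) and with the GC content trend removed (0.446).

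*Camk2d* (ENSMUSG00000053819, chromosome 3, 126596302 to 126846326, plus strand) encodes the delta subunit, the main form in heart, and *Camk2g* (ENSMUSG00000021820, chromosome 14, 20734875 to 20794088, minus strand) the gamma subunit, which in neurons can carry calmodulin to the nucleus. The EPR of *Camk2d* was 0.0141, 0.0156 and 0.0172 under RPL10A-STAMP and 0.0122, 0.0130 and 0.0136 under RPL22-STAMP. As deposited, every RPL10A-STAMP library was higher (two-sided p = 0.10 by exact permutation, the least that this design can reach). Scaled to the median gene, the groups overlapped and the sign turned (log2 fold change -0.07, standard error 0.13, limma adjusted p = 0.750; 0.16 and 0.595 without scaling). *Camk2g* varied most relative to its mean among the CaMKII genes, with 0.00778, 0.0169 and 0.0173 under RPL10A-STAMP and 0.0116, 0.0210 and 0.0136 under RPL22-STAMP. One library of each variant was well below another of the same variant, and the deposited values overlapped. Its log2 fold change was -0.32 (standard error 0.16, limma adjusted p = 0.228).

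Ratios of one CaMKII gene to another within the same library do not depend on the scaling, and they placed *Camk2a* above its paralogs everywhere. *Camk2a* was higher than *Camk2b* in 6 of 6 libraries, by 3.16-fold to 3.80-fold. It was higher than *Camk2d* in 6 of 6 libraries by 3.33-fold to 7.12-fold, and higher than *Camk2g* in 6 of 6 by 3.45-fold to 6.40-fold. *Camk2b* was higher than *Camk2d* in 6 of 6 libraries (1.02-fold to 1.87-fold) and higher than *Camk2g* in 6 of 6 (1.01-fold to 1.86-fold), the lower ends of which are close to equality. For each of these 5 pairs the exact sign-flip permutation test over the libraries gave p = 0.0312, two-sided, the smallest that 6 libraries allow, and 0.0365 after Benjamini-Hochberg adjustment over 7 pairs. *Camk2d* and *Camk2g* were not separated (higher in 3 of 6 libraries, mean ratio 1.02, range 0.621 to 1.81, exact permutation p = 0.844). The proteins encoded by the 4 CaMKII genes were 84.3% to 88.3% identical in pairwise alignment.

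These ratios were also set side by side for the variants. *Camk2a* over *Camk2d* was 3.33, 3.77 and 3.47 in the RPL10A-STAMP libraries and 4.93, 7.12 and 6.38 in the RPL22-STAMP libraries. *Camk2b* over *Camk2d* was 1.03, 1.19 and 1.02 under RPL10A-STAMP and 1.48, 1.87 and 1.81 under RPL22-STAMP. Neither ratio overlapped between the variants, whereas *Camk2a* over *Camk2b* was 3.23, 3.16 and 3.42 under RPL10A-STAMP and 3.33, 3.80 and 3.52 under RPL22-STAMP and did overlap. For the differences between the variants, the exact permutation p (two-sided) was 0.10 for the first 2 ratios and 0.20 for the third, and adjusted over 7 pairs it was 0.35 for all 3, so that none passed. A design of 3 libraries against 3 could not have passed.

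**Figure D2:**
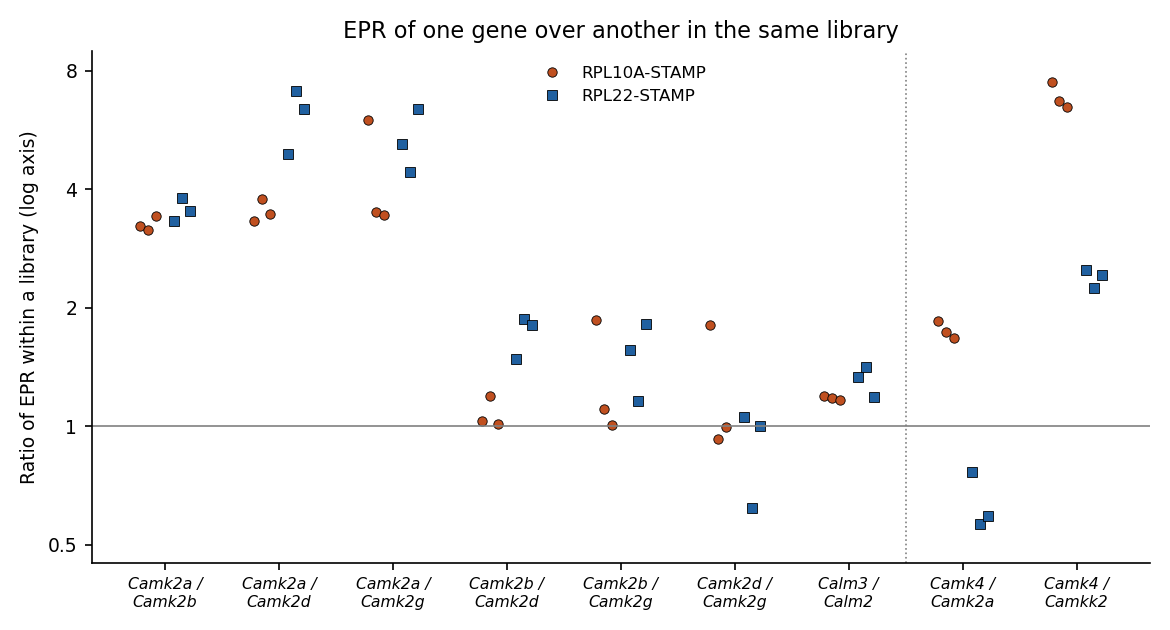
Ratio of the EPR of one gene to that of another in the same library (log axis, 1 means equal), by library and variant. Left of the dotted line are the 7 pairs tested over the 6 libraries, with *Camk2a* at 3.16 to 7.12 times its paralogs. Right of it are 2 pairs chosen after their values were seen, whose variants do not overlap and which were not tested.

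In the CaMKK cascade, *Camk4* (ENSMUSG00000038128, chromosome 18, 32934931 to 33191228, plus strand) encodes the mainly nuclear CaMKIV. Its EPR was 0.0869, 0.102 and 0.0999 under RPL10A-STAMP and 0.0461, 0.0523 and 0.0515 under RPL22-STAMP. Every RPL10A-STAMP library was far above every RPL22-STAMP library, 1.93-fold on average (two-sided p = 0.10 by exact permutation). Scaled to the median gene the groups stayed apart at 1.47-fold, and the log2 fold change was 0.49 (standard error 0.15, limma adjusted p = 0.0697), which missed the threshold. Without scaling it was 0.82 (limma adjusted p = 0.0373), a call in a fit in which 11.9% of tested genes were called in this direction. *Camk4* ranked between percentiles 95.6 and 98.1 of tested genes in every library.

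*Camkk2* (ENSMUSG00000029471, chromosome 5, 122731170 to 122779409, minus strand) encodes the kinase that activates CaMKI and CaMKIV. Its EPR was 0.0116, 0.0152 and 0.0154 under RPL10A-STAMP and 0.0184, 0.0232 and 0.0213 under RPL22-STAMP, without overlap. Scaled EPR was 1.96-fold higher with RPL22-STAMP, and the libraries of each variant lay close together (0.0122, 0.0125 and 0.0120 against 0.0255, 0.0226 and 0.0237). The log2 fold change was -0.61 (standard error 0.12, limma adjusted p = 0.01995). Its call was lost without any one of the RPL10A-STAMP libraries or without RPL22-STAMP replicate 3 (limma adjusted p up to 0.0779), without scaling (0.225) and with the GC content trend removed (0.0810).

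*Camk1* (ENSMUSG00000030272, chromosome 6, 113334124 to 113343984, minus strand) encodes CaMKI alpha and was the least edited of the 9 genes. Its EPR was 0.00629, 0.00941 and 0.00293 under RPL10A-STAMP and 0.00289, 0.00768 and 0.00461 under RPL22-STAMP. The groups overlapped fully, and the libraries of 1 variant spanned a wider range than the difference between the means. The log2 fold change was -0.01 (standard error 0.17, limma adjusted p = 0.972), and its sign depended on the setting. *Camk1* shares 3.88% of its exon bases with *Ogg1* on the opposite strand, and whether the counting of reads used strand is not given in the sources used here.

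Among the calmodulin genes, *Calm3* (ENSMUSG00000019370, chromosome 7, 16915379 to 16924114) had an EPR of 0.0241, 0.0258 and 0.0250 under RPL10A-STAMP and 0.0298, 0.0440 and 0.0408 under RPL22-STAMP. *Calm2* (ENSMUSG00000036438, chromosome 17, 87433412 to 87446935) had 0.0203, 0.0218 and 0.0215 under RPL10A-STAMP and 0.0223, 0.0311 and 0.0345 under RPL22-STAMP. In both genes the RPL10A-STAMP libraries were nearly equal and lay below all RPL22-STAMP libraries, of which replicate 1 was the lowest. Scaled EPR was 1.97-fold higher with RPL22-STAMP for *Calm3* (log2 fold change -0.74, standard error 0.14, limma adjusted p = 0.0156). For *Calm2* it was 1.78-fold higher (log2 fold change -0.59, standard error 0.14, limma adjusted p = 0.0375). Within libraries, *Calm3* was above *Calm2* in 6 of 6, by 1.16-fold to 1.41-fold (exact sign-flip permutation p = 0.0312, two-sided, 0.0365 adjusted over 7 pairs).

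Parts of the calmodulin messages exist elsewhere in the genome. Of the 1205 bases of the *Calm2* transcript, 74.8% lie in runs of at least 50 identical bases at other places, mainly in the processed pseudogenes *Gm7308* on chromosome 6 and *Gm14480* on the X chromosome, in *Gm15720* inside *Itpr2*, and in an unannotated stretch of the X chromosome (48010012 to 48011024). The share was 10.7% for *Calm3* and 0% for *Camk2b*, *Camk2d*, *Camk2g*, *Camk1*, *Camk4* and *Camkk2*. For *Camk2a* it was 2.64%, in short repeats. None of these pseudogenes was among the listed genes. The authors' alignment settings kept reads that match several places, up to a limit. How such reads were counted is not given in the sources used here, and their part in the values of *Calm2* was not tested.

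The calls of *Calm2* and *Calm3* rested on the setting to different degrees. *Calm3* lost its call without RPL10A-STAMP replicate 2 (limma adjusted p = 0.0634) or replicate 3 (0.0694), without scaling (0.183) and with the GC content trend removed (0.107). *Calm2* lost its call whichever library was left out (limma adjusted p from 0.0617 to 0.128) and without scaling (0.336), and kept it with the GC content trend removed (log2 fold change -0.86, limma adjusted p = 0.0201).

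**Figure D3:**
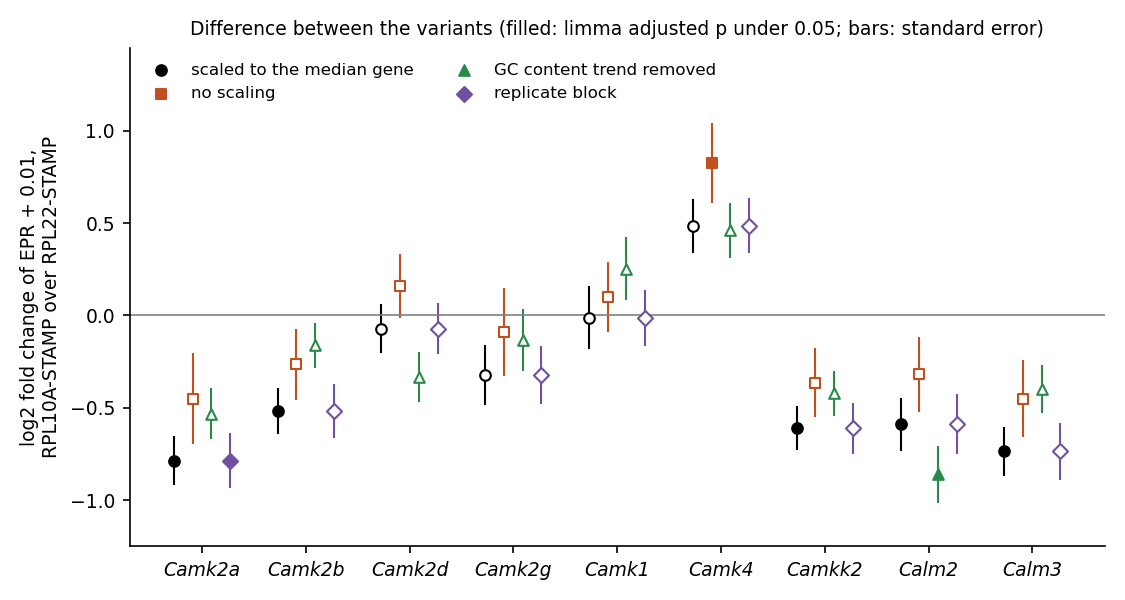
Log2 fold change of EPR + 0.01 (RPL10A-STAMP over RPL22-STAMP) with its standard error for each gene under 4 settings, filled where the limma adjusted p is below 0.05. With scaling 5 of the 9 genes are filled, without scaling only *Camk4*, with the GC content trend removed only *Calm2*, and with a block for the replicate number only *Camk2a*.

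Base composition moved with the difference between the variants. Across the 8039 tested genes with a transcript sequence, the log2 fold change correlated with GC content (Spearman rho -0.47 across genes, which share libraries and are not independent): GC-rich messages were on the whole higher with RPL22-STAMP. The transcripts had 55.1% GC in *Camk2a*, 59.2% in *Camk2b*, 53.1% in *Camkk2* and 58.3% in *Calm3*, above the median of 48.9% over tested genes. *Calm2* was called in the same direction with 42.7%, on the other side of the median. Genes within 1 percentage point of *Calm2* in GC content had a median log2 fold change of 0.21, so that *Calm2* lay 0.80 below its neighbours in composition. *Camk2a* lay 0.57 below a local median of -0.22, *Camkk2* 0.47 below one of -0.14 and *Calm3* 0.46 below one of -0.28. For *Camk2b* the distance was 0.22 (local median -0.30), which is smaller than the local median itself. Its GC content is that of a transcript of 2223 bases, of which 1998 are coding, while an APPRIS principal transcript has 4023. The transcript used was also shorter than the principal one for *Camk2a* (3244 against 4970 bases), *Camk2d* (5396 against 5524) and *Camk2g* (1937 against 3703). For *Camkk2* it was longer (4861 against 2751). *Camk4*, at 48.2% GC, lay 0.46 above a local median of 0.02. The part of base composition in these results was not tested.

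**Figure D4:**
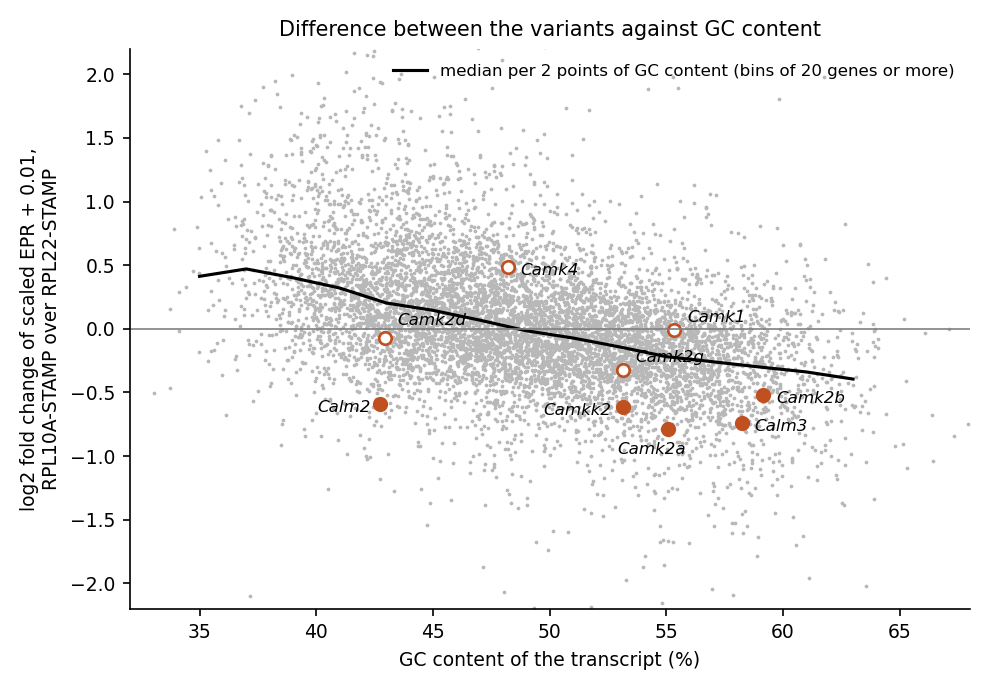
Log2 fold change of scaled EPR + 0.01 against the GC content of the transcript in percent, for tested genes (grey; 17 lie outside the axes), with the running median in black. Orange circles are the 9 genes, filled where called; *Calm2* lies 0.80 below genes of its GC content and *Camk4* 0.46 above.

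The deaminase rAPOBEC1 prefers a C that follows an A or a U. The share of C after A or T in the transcript ranged from 35.5% in *Calm3* to 54.2% in *Camk2d* among the 9 genes, while the middle of all tested genes, from the lower to the upper quartile, was 42.7% to 51.5%. *Camk2a* had 44.3% and *Camk4* 46.6%, inside that range, and both were among the most edited. *Camk2d*, with the highest share, was edited less than *Camk2a* in every library. *Camk2b*, with 32.4% C in the transcript used, had the most C of the 9 and *Calm2*, with 17.6%, the least. In the means of both variants *Calm2* carried more edits per read than *Camk2b*. These are values of single genes, and the part of sequence context and C content in the EPR was not tested.

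The wider pathway was examined through a list of 60 calcium and calmodulin genes, the 9 included, of which 51 were edited in all 6 libraries and tested. Of these, 14 were called higher with RPL22-STAMP and 3 higher with RPL10A-STAMP, and 34 were not called, while among all tested genes 5.77% were called higher with RPL22-STAMP and 8.51% higher with RPL10A-STAMP. The 3 of 51 are close to that background. Without the 9 genes, 9 and 3 of 42 were called, and the median log2 fold change was -0.06. The list was fixed with earlier results of these data known.

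Neurons also make proteins that hold calmodulin in reserve. All 4 genes of this group, *Pcp4*, *Nrgn*, *Pcp4l1* and *Gap43*, were called higher with RPL22-STAMP, with a median log2 fold change of -0.97. Among all tested genes 5.77% were called in this direction. The group is part of the list that was fixed with earlier results of these data known. Neurogranin and GAP43 bind calmodulin when calcium is low, the first in dendrites and the second in axons, and PCP4 speeds the exchange of calcium on calmodulin. The EPR of *Nrgn* was 0.0368, 0.0342 and 0.0351 under RPL10A-STAMP and 0.0573, 0.0784 and 0.0688 under RPL22-STAMP (log2 fold change -1.09, standard error 0.15, limma adjusted p = 0.00637). That of *Pcp4* was 0.0943, 0.103 and 0.107 under RPL10A-STAMP and 0.162, 0.239 and 0.165 under RPL22-STAMP (log2 fold change -1.18, standard error 0.17, limma adjusted p = 0.00637). In both, all RPL22-STAMP libraries were far above all RPL10A-STAMP libraries. *Pcp4l1* had a log2 fold change of -0.85 (limma adjusted p = 0.0216) and *Gap43* of -0.61 (0.0194). Without scaling, *Pcp4* (limma adjusted p = 0.0715), *Pcp4l1* (0.0654) and *Gap43* (0.152) lost their calls and *Nrgn* did not. With the GC content trend removed, *Pcp4l1* lost its call (log2 fold change -0.67, limma adjusted p = 0.0576) and the other 3 did not. With a replicate block 3 of the 4 were called. With the block and the GC content trend removed together, only *Pcp4* was (limma adjusted p = 0.0444). The calls of *Nrgn* and *Pcp4* held whichever library was left out, that of *Pcp4l1* was lost without RPL10A-STAMP replicate 2 or 3 or RPL22-STAMP replicate 1 (limma adjusted p up to 0.0825), and that of *Gap43* without any RPL10A-STAMP library or RPL22-STAMP replicate 3 (up to 0.0723).

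One CaMKII inhibitor gene and the gene of the pseudokinase CaMKv were called in the same direction. *Camk2n2*, which encodes an inhibitor protein of active CaMKII, had an EPR of 0.0457, 0.0426 and 0.0537 under RPL10A-STAMP and 0.0890, 0.121 and 0.107 under RPL22-STAMP (log2 fold change -1.34, standard error 0.15, limma adjusted p = 0.00453). *Camkv*, which encodes a kinase-like protein without kinase activity, had 0.00851, 0.0104 and 0.0133 against 0.0216, 0.0320 and 0.0225 (log2 fold change -1.003, standard error 0.13, limma adjusted p = 0.00535). Neither gene's groups overlapped, and both calls held whichever library was left out. The other inhibitor gene, *Camk2n1*, had a log2 fold change of -0.38 and was not called (limma adjusted p = 0.128). *Pnck*, which encodes CaMKI beta, was 3.92-fold higher with RPL22-STAMP after scaling (log2 fold change -1.17, limma adjusted p = 0.0133; 0.0506 and 0.0558 without RPL10A-STAMP replicate 2 or 3). The remaining CaMKI and CaMKK genes *Camk1d*, *Camk1g* and *Camkk1* had values of -0.06, 0.14 and -0.26 and were not called.

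None of the 8 genes of calcineurin, the phosphatase that calmodulin activates, and its regulators was called (median -0.11). With 14.3% of all tested genes called, counts in groups this small, including those that follow, lie near the background and are given as values of single genes. Of 8 tested nuclear targets of the cascade, *Mef2a* and *Mef2c*, transcription factors that act in activity-dependent gene expression, were called higher with RPL10A-STAMP. The EPR of *Mef2a* was 0.0333, 0.0358 and 0.0450 under RPL10A-STAMP and 0.0135, 0.0152 and 0.0128 under RPL22-STAMP (log2 fold change 0.73, limma adjusted p = 0.0176), and *Mef2c* had a log2 fold change of 0.51 (limma adjusted p = 0.0400). Of 6 tested binding partners of CaMKII, the gene for densin-180, *Lrrc7*, was called higher with RPL10A-STAMP (0.0383, 0.0740 and 0.0481 against 0.0165, 0.0117 and 0.0177; log2 fold change 1.00, standard error 0.23, limma adjusted p = 0.0299). *Adcy1* and *Nos1* encode a calmodulin-dependent adenylyl cyclase and nitric oxide synthase and were named after their values were seen. Both were called higher with RPL22-STAMP (log2 fold changes -0.66 and -0.62, limma adjusted p = 0.0336 and 0.0487). The deposited values of *Adcy1* overlapped between the variants (two-sided p = 0.30 by exact permutation). The calls higher with RPL10A-STAMP depended on single libraries. *Mef2c* was not called whichever library was left out (limma adjusted p from 0.0598 to 0.113), *Mef2a* was called only without RPL10A-STAMP replicate 2 or RPL22-STAMP replicate 1 (0.0255 to 0.0718), and *Lrrc7* only without RPL22-STAMP replicate 1 (0.0399 to 0.0857). With the GC content trend removed, *Mef2a* (0.43) and *Mef2c* (0.16) were not called. In that fit 11 genes of the list were called, of which 8 were among the 17.

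**Figure D5:**
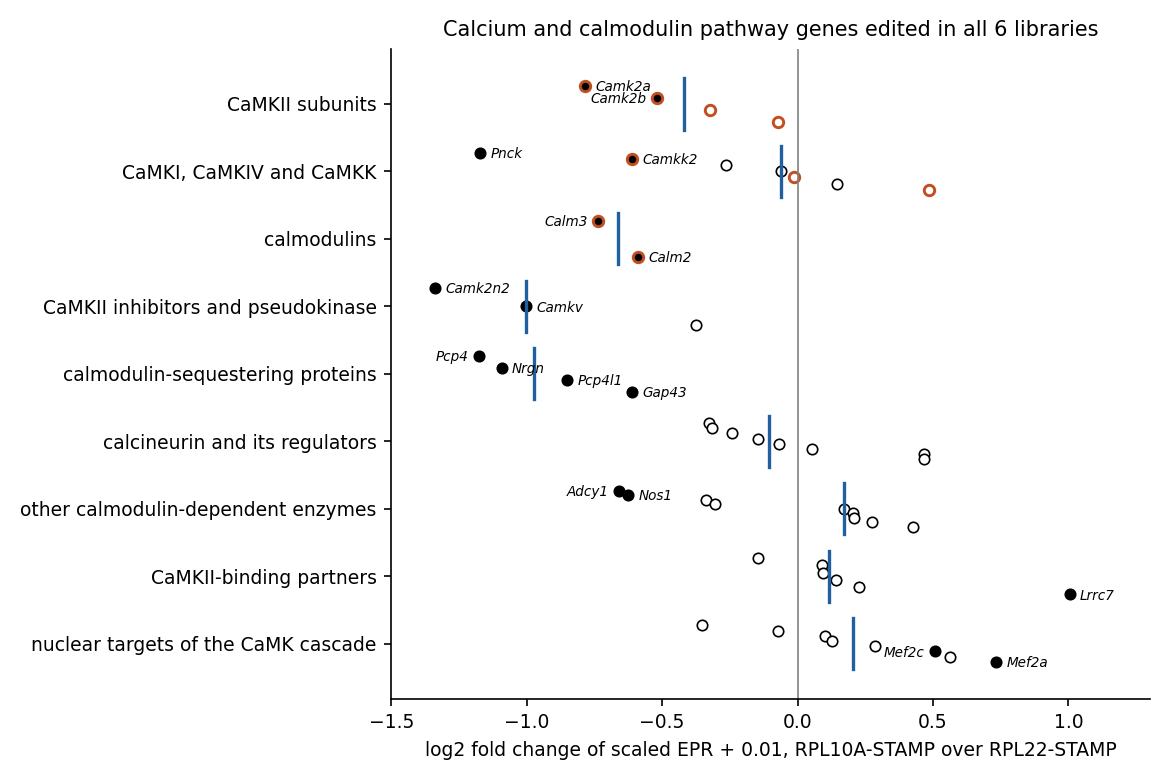
Log2 fold change of scaled EPR + 0.01 (RPL10A-STAMP over RPL22-STAMP) of the 51 tested pathway genes by group. Filled points are called and named, orange rims mark the 9 genes, and blue lines are group medians, from -1.003 for the inhibitors and pseudokinase to 0.21 for nuclear targets.

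The genes whose profile over the 6 libraries was most like that of *Camk2a* were looked for among all tested genes, by the root mean square difference of centred log2 scaled values. They were *Snhg11* (0.0413), *Gprasp2* (0.0459), *Pole3* (0.0482), *Dcaf7* (0.0499) and *Mapk10* (0.0649), in log2 units over 6 libraries. *Calm3* came at rank 7 (0.0691), *Calm2* at rank 84, *Camkk2* at rank 90 and *Camk2b* at rank 143, whereas *Camk2d* was at rank 2494 and *Camk4* at rank 6460. With 2 groups of 3 libraries, such a profile holds little more than the difference between the variants.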

How the data were processed

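EPR was measured in 6 bulk libraries from cultured cortical neurons of the mouse. The authors aligned trimmed single-end reads to mm10 (STAR), found C-to-U edits with SAILOR and reads per gene with featureCounts, and deposited the ratio of edits to reads of 31053 genes, unscaled between libraries. The gene annotation is not given in the sources used here. GENCODE M21 held 31011 of these identifiers and lacked 42. Depth per gene is unknown, so no count model, interval or detection limit was used.

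Genes with edits in every library, 8046 in number, were tested. Their median in a library was set to the geometric mean of the 6 medians by a factor per library, log2(EPR + 0.01) was fitted with limma 3.58.1 (R 4.3.3, variance trend), and the Benjamini-Hochberg adjustment ran over all tested genes (threshold 0.05). The fit was tested on simulated data. Deposited values were compared by exact permutation over 20 labelings, and pairs of genes by exact sign flips over 6 libraries. GC content, C content and length are those of a gene's transcript with most coding bases, and trends were removed with a spline of 4 degrees of freedom. Coding sequences, protein identities and genome copies are those of an APPRIS principal transcript. Copies were searched with BLAST 2.17.0 on GRCm38 as runs of at least 50 identical bases. The members, the pathway list and the tests were chosen with earlier results of these data known. Named genes are the 9 members, the called pathway genes with the 8 largest changes in each direction, all CaMKII inhibitor and calmodulin-sequestering genes, and the 5 genes most like *Camk2a*. Others are marked. Some related genes are not reported here and were left out of the list. Alternatives covered the pseudocount, the filter on edited genes, the scaling, genes with an EPR above 1, the replicate block, trends with GC content and length, the variance trend and each library left out. Python 3.11.15, numpy 2.4.6, pandas 2.3.3, Biopython 1.88 and matplotlib 3.10.9 were used.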

Additional observations from a re-analysis of the deposited data

How the results depend on the processing

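The directions of *Camk2a*, *Camk2b*, *Camk2g*, *Camk4*, *Camkk2*, *Calm2* and *Calm3* on the log2 scale were the same under all 18 alternatives, and their calls were not. Of the 9 genes, 5 were called under both other pseudocounts, quantile normalization, without genes with an EPR above 1 and without the variance trend. With genes edited in at least 3 libraries (754 genes called in all, 11 of the pathway list) and in at least 1 (569 and 9), 3 of the 9 were called, *Camk2b* (-0.52) and *Calm2* (-0.59) not. Without scaling 8 pathway genes and 1 of the 9, *Camk4* (0.82), were called, with *Camk2a* at -0.45, *Camk2b* at -0.27, *Camkk2* at -0.37, *Calm2* at -0.32 and *Calm3* at -0.45 not called and *Camk2d* (0.16) and *Camk1* (0.10) turned in sign. With the GC content trend removed, 663 genes, 11 of the pathway and 1 of the 9 (*Calm2*) were called, and *Camk2a* (-0.53), *Camk2b* (-0.16), *Camkk2* (-0.42) and *Calm3* (-0.40) were not. *Camk1* turned to 0.25 there, to 0.011 with quantile normalization and to 0.12 with the transcript length trend removed. The length correction left 3 of the 9 called, without *Camk2b* (-0.44) and *Calm2* (-0.44). The cause was not tested.

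Whether the replicate numbers pair the libraries could not be settled. After scaling, deviations of same-numbered libraries correlated at 0.0437, 0.0464 and -0.00546 across genes. For libraries with different numbers the correlation lay between -0.0486 and 0.00406. The scaling removes any shift that all genes of a library share. Before it, replicate 1 had the lowest median EPR of tested genes in both variants (0.0120 with RPL10A-STAMP, 0.00907 with RPL22-STAMP). With a replicate block, 603 genes, 8 of the pathway list and 1 of the 9 (*Camk2a*) were called, and *Camk2b* (-0.52), *Camkk2* (-0.61), *Calm2* (-0.59) and *Calm3* (-0.74) were not. With the block and the GC content trend removed together, 227 genes, 1 of the pathway list and 0 of the 9 were called (limma; *Camk2a* -0.53, *Camk2b* -0.16, *Camk1* 0.25, *Camkk2* -0.42, *Calm2* -0.86, *Calm3* -0.40). The model with a block has fewer residual degrees of freedom.

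Leaving out 1 library at a time called 369 to 873 genes, 4 to 12 of the pathway list and 0 to 3 of the 9, with 0 of the 9 without RPL10A-STAMP replicate 2 or 3. Log2 fold changes then ranged from -0.84 to -0.74 for *Camk2a*, -0.55 to -0.48 for *Camk2b*, -0.64 to -0.59 for *Camkk2*, -0.66 to -0.51 for *Calm2*, -0.81 to -0.67 for *Calm3* and -0.11 to 0.14 for *Camk1*. Differences of EPR as deposited (RPL10A-STAMP minus RPL22-STAMP) ranged from -0.00329 to 0.00171 for *Camk2g*, -0.000449 to 0.00279 for *Camk1* and -0.0174 to -0.0103 for *Calm3*. The log2 ratio of *Camk2d* to *Camk2g* ranged from -0.14 to 0.16. It was -0.20 in the RPL22-STAMP libraries alone. Over all 6 libraries, the mean difference of EPR between *Camk2d* and *Camk2g* was -0.000384. After scaling, the differences of EPR were -0.0421 for *Camk2a*, -0.0107 for *Camk2b*, -0.00126 for *Camk2d*, -2.53e-06 for *Camk1*, 0.0268 for *Camk4*, -0.0117 for *Camkk2*, -0.0145 for *Calm2* and -0.0212 for *Calm3*. Ratios of pairs were not tested with fewer than 6 libraries, where no exact p can pass. The 3 libraries per variant and unknown reads per gene limit all of these values, most of all for weakly edited genes such as *Camk1*.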
